A study of Mus musculus with 41 samples.

Results

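The p53 pathway was followed through 10 genes, Trp53 itself and 9 genes known as p53 targets or partners, namely Mdm2, Cdkn1a, Ccng1, Trp53inp1, Bbc3, Bax, Perp, Phlda3 and Zmat3. They were taken by symbol from the 24028 gene symbols of the RNA-seq tables, and each stood on 1 row in every library. The cells were mouse androgenetic haploid embryonic stem cells (AG-haESCs), which carry only a sperm-derived genome, of C57BL/6 strain and grown on feeder fibroblasts. RNA-seq gave 13 libraries, each amplified from a small number of sorted haploid cells, with values in FPKM, which divide a gene's fragments by transcript length and by library depth. Wild-type 2i-14 cells in 2i/L gave 3 libraries, at passages 18, 39 and 50. 2i/L is serum medium with LIF, the MEK inhibitor PD0325901 and the GSK3 inhibitor CHIR99021. Wild-type cells in TSa2i/L gave 5 libraries, made up of 3 passages of TSa2i-14 (p22, p47, p54) and 2 of TSa2i-C57 (p9, p58). TSa2i/L cells were derived with the Src inhibitor CGP77675 in place of PD0325901 and then kept in SF/a2i/L, the serum-free form of that medium. 2i-O48 lacks H19-DMR and IG-DMR, the paternally methylated control regions of 2 imprinted domains, and 2i-O48-TKO also lacks the H19 gene. Each of these DMR-deleted lines gave 1 library in 2i/L. Wild-type 2i-14 and both DMR-deleted lines each gave 1 further library once moved into SF/a2i/L for 5 passages, called switched below. Libraries of one line were different passages of that line, so p-values measure only the spread between these libraries.

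The tumour suppressor p53, encoded by Trp53, is a transcription factor that is held at a low protein level by the ubiquitin ligase Mdm2 and becomes stable after DNA damage and other stress. It then raises genes that stop the cell cycle, start apoptosis or limit p53 itself, and it acts on DNA as a tetramer that binds a pair of half-sites. Much of this control acts on the protein, which RNA-seq does not measure. Loss of p53 function is known to help haploid embryonic stem cells stay haploid in culture.

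The promoters were read for the half-site to which p53 binds. RefSeq windows on GRCm38.p6, from 250 bases before to 50 after a start site, were at hand for 7 of the 10 genes, with 10 start sites in all. The 10-base p53 half-site consensus, which reads as the same pattern on both strands, was found in the windows of Trp53, Mdm2, Ccng1 and Bax and at the first of the Cdkn1a start sites. It occurs in 8.36% of all 32851 windows of that length, and 2 or more matches occur in 0.359%. No full half-site was found in the window of Phlda3, at the second Cdkn1a start site or at the 3 start sites of Bbc3. The core of the half-site, CWWG where W is A or T, was also sought as an adjoining pair. Such a core pair was found at 3 start sites, that of Trp53 and the first ones of Cdkn1a and Bbc3. It occurs in 7.22% of all windows. The Phlda3 window ends in gaacatgt, letters that fit the start of the consensus. The window edge cuts off the rest, so a match there could not be called. A match is a description of letters, and no binding was measured. The 3 windows shown whole belong to Trp53 and Phlda3, the genes with the clearest changes, and to Cdkn1a, the one window here with 2 matches. Letters of full half-site matches are in capitals, and core pairs are not marked.
Trp53, chr11:69580109-69580408, plus strand: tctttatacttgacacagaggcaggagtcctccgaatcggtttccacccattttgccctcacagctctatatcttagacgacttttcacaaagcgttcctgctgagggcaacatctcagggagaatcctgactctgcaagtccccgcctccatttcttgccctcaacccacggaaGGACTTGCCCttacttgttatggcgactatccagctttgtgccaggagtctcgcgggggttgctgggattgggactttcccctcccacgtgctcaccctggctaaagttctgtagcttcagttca
Phlda3, chr1:135765835-135766134, plus strand: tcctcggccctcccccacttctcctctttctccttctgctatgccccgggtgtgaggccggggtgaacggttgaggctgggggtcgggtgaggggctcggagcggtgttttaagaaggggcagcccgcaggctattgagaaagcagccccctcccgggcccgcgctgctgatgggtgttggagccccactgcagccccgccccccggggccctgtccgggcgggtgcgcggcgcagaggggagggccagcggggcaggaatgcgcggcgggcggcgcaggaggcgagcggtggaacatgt
Cdkn1a, chr17:29090729-29091028, plus strand: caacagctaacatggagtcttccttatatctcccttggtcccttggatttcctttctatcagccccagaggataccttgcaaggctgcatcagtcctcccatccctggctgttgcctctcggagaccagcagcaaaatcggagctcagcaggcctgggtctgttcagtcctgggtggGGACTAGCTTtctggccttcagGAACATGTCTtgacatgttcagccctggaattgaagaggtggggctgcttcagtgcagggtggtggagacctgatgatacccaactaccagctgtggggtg
In Trp53 the match began 75 bases before the start site. In Cdkn1a the matches began 73 and 51 bases before it. The single matches of the remaining 3 genes lay further out and are shown within 60 bases each, 186 bases before the start for Mdm2, 185 for Ccng1 and 201 for Bax.
Mdm2, chr10:117710910-117710969, minus strand: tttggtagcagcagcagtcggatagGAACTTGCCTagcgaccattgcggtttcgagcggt
Ccng1, chr11:40755437-40755496, minus strand: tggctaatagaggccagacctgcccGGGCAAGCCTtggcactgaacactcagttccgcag
Bax, chr7:45467065-45467124, minus strand: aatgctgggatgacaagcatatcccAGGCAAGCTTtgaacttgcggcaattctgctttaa

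All 13 libraries held the embryonic stem cell markers, 8 of 8 at an FPKM of at least 1. Depth is not given with FPKM, and the smallest values imply 12700000 to 19800000 fragments per library, at which 3 fragments on 1 kb of transcript are worth 0.152 to 0.236 FPKM. Fibroblast markers stood high in 3 libraries, 2i-14 p39, TSa2i-14 p54 and TSa2i-C57 p58. There 9 to 12 of 15 reached an FPKM of 1 and their summed level was 72.9 to 168 FPKM, against 1 to 4 genes and at most 27 FPKM in the others. The H19 gene was at 0 to 0.210 FPKM in 11 libraries, wild type included, so its level does not check the genotype of 2i-O48-TKO. Meg3, the maternal transcript of the IG-DMR domain, was at 0.0240 to 0.164 FPKM in the 4 DMR-deleted libraries and at 0.147 to 22.7 FPKM in the wild-type ones.

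The 10 genes covered a wide range of levels, and FPKM is given per transcript length, so their levels can be set side by side. Bax, which opens the mitochondrial membrane in apoptosis, was the highest, with a median of 475 FPKM over the 13 libraries and only a 1.76-fold range, from 326 to 575 FPKM. Cdkn1a, the p21 inhibitor of cyclin-dependent kinases, had a median of 147 FPKM and Trp53 one of 122 FPKM. Ccng1 (cyclin G1, median 63.3 FPKM), Mdm2 (47.8 FPKM), Phlda3, an inhibitor of Akt (37.2 FPKM), and Perp, a protein of cell junctions (16.6 FPKM), followed. Trp53inp1, a nuclear cofactor of p53 (12.7 FPKM), and Zmat3, an RNA-binding zinc finger protein (3.66 FPKM), were lower. Bbc3, which encodes the death protein Puma, was lowest, at 0.163 to 1.22 FPKM, which is about 4.79 to 35.8 fragments per library. Its differences therefore rest on few fragments.

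Trp53 spanned the widest range of the 10, 31.2-fold between switched 2i-O48-TKO and 2i-14 p18. Among 6278 genes, 1.21% had a wider range over these libraries. Perp followed with 11.1-fold, Bbc3 with 7.49-fold and Phlda3 with 7.43-fold. Switched 2i-O48-TKO was among the 3 lowest libraries for 7 of the 10 genes, 2i-O48 in 2i/L for 8 and switched 2i-14 for 6. At the other end, TSa2i-C57 p9 was among the 3 highest for 7 genes and the highest of all for 4. Such counts over all genes are not given here, so they are not shown to be particular to p53 genes. Summed FPKM with microRNA genes left out was highest in TSa2i-C57 p9 (735364) and lowest in 2i-O48 in 2i/L (651106). The other low-ranking cultures did not have low sums, with 710531 for 2i-O48-TKO and 705252 for 2i-14 after the switch. The part of library-wide scale in these ranks was not tested.

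**Figure D1:**
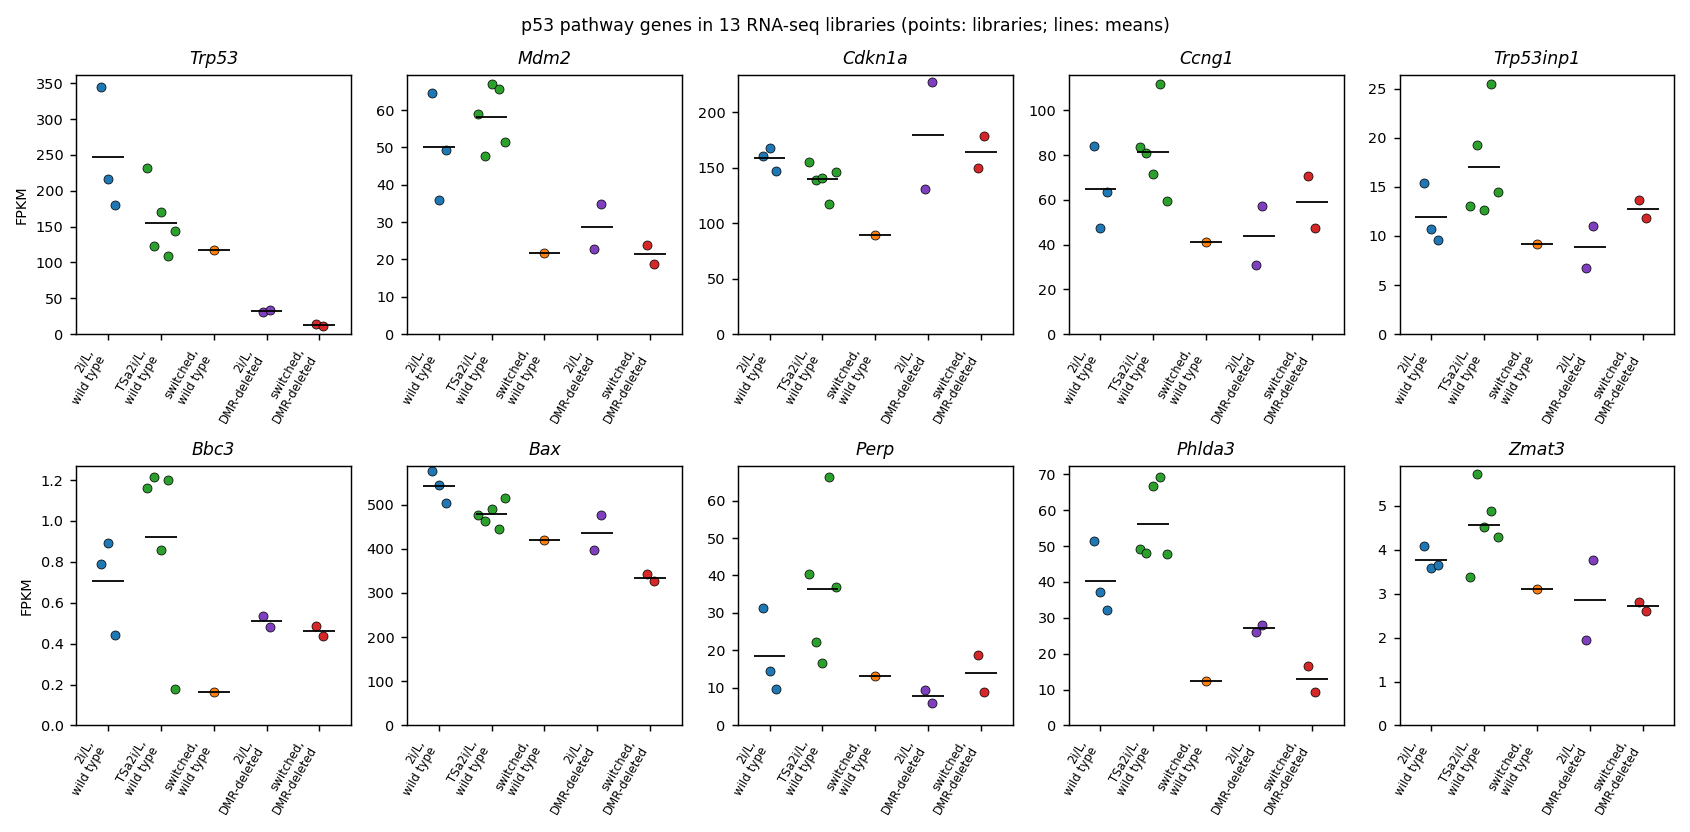
FPKM (linear axis from 0) of each of the 10 genes in the 13 libraries, with a point for each library, a line at the mean of each group and groups by medium and genotype. Trp53 lies at 109 FPKM or more in the 9 wild-type libraries and at 33.2 FPKM or less in the 4 DMR-deleted ones, and no other gene of the 10 separates them.

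Trp53 was far lower in both DMR-deleted lines than in any wild-type culture. In 2i/L 2i-O48 had 30.2 FPKM of Trp53, and 2i-O48-TKO had 33.2. In wild-type 2i-14 it was 346 FPKM at p18, 217 at p39 and 180 at p50. The groups lay far apart, and the DMR-deleted libraries were close to each other. On log2(FPKM + 1) the difference was -2.87 (SE 0.29, n = 2 and 3), a level of 0.137 of the wild type (limma, adjusted p = 0.0257). This comparison called 0.118% of 10164 genes, 12 in number (0.0787% higher and 0.0394% lower), and 1 of the 9 p53 genes tested, Trp53. By size it was the sixth largest fall of all genes tested. Fewer cells that express a gene and less of its RNA per cell cannot be told apart in such libraries.

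With only 2 DMR-deleted libraries, both from O48 cells, the line and the deletion cannot be told apart, and no wild-type O48 culture was analysed. The labels give no passage for the DMR-deleted libraries, so passage could not be matched either. The Trp53 difference was between -3.07 and -2.60 under 13 alternatives and was called in 9 of them. Of these 9, 2 were the same fit, since each left out only 2i-14 p18. It lost its call without 2i-O48-TKO (-2.94, adjusted p = 0.148), without 2i-O48 (-2.80, 0.396), without 2i-14 p39, the 2i/L library rich in fibroblast RNA (-2.94, 0.0647), and with no filter on low FPKM (0.256), all by limma. With 1 DMR-deleted library left, the spread comes from the 2i-14 libraries alone, the lone library is assumed to vary like them, and the difference stayed as large.

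The same order held across media. TSa2i/L and switched wild-type cells ranged from 109 FPKM in TSa2i-C57 p9 to 232 FPKM in TSa2i-14 p22, with switched 2i-14 at 118 FPKM. Switched 2i-O48 and 2i-O48-TKO were at 13.9 and 11.1 FPKM. The lowest of 9 wild-type libraries was thus 3.29 times the highest of 4 DMR-deleted ones. Genes not detected in any DMR-deleted library have no such ratio and were not counted. Of 6312 genes with a mean of at least 5 FPKM, 42 (0.665%) were counted as lower in every DMR-deleted library than in every wild-type one. Only 1 other gene counted had as large a gap. That gene, singled out after its values were seen, was Tmsb15b1, a thymosin, at 3.24 to 5.21 FPKM against 36.6 to 76.2 FPKM.

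The genes around Trp53 did not share its difference. Trp53 lies on mm9 (NCBIM37) chr11:69393861-69405375, plus strand, and overlaps no other annotated gene. The deleted imprinted regions are on other chromosomes. Of the expressed protein-coding genes nearest to it, 4 on each side, chosen after the data were seen, the difference of DMR-deleted from wild-type cells in 2i/L ranged from -0.36 for Mpdu1 to 0.58 for Cyb5d1. Wrap53, a telomerase protein gene that runs in the opposite direction next to Trp53, differed by 0.17, at 30.3 and 59.6 FPKM against 27.6 to 49.9 FPKM. The sources used here do not say whether reads were counted by strand, so antisense reads from this gene pair cannot be told apart. The mouse genome also holds a Trp53 pseudogene, Trp53-ps, and how reads shared with it were counted is not given in the sources used here.

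**Figure D2:**
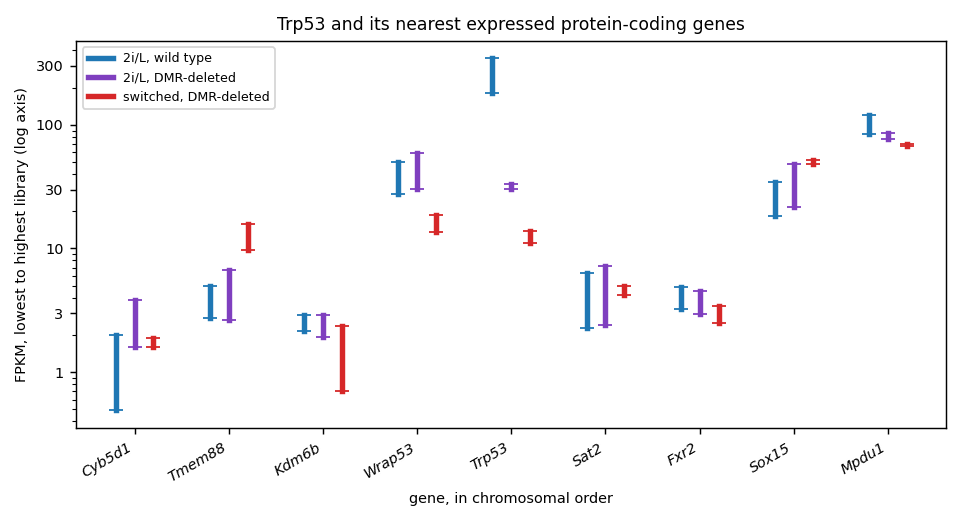
FPKM range (log axis, lowest to highest library) of Trp53 and the 4 nearest expressed protein-coding genes on each side, in chromosomal order, for 2i-14 in 2i/L (3 libraries) and the DMR-deleted lines in 2i/L (2) and after the switch (2). The Trp53 ranges lie apart, 180 to 346, 30.2 to 33.2 and 11.1 to 13.9 FPKM, while for Wrap53 those of the 2i/L libraries overlap.

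The targets did not move as far as Trp53 in the DMR-deleted lines. In 2i/L, 5 of 9 p53 genes tested were lower in both DMR-deleted libraries than in all wild-type ones, namely Trp53, Mdm2, Bax, Perp and Phlda3, where 7.74% of all genes tested were. Mdm2 was at 22.8 (2i-O48) and 34.8 FPKM (2i-O48-TKO) against 36.0 to 64.7 FPKM (log2 difference -0.76, SE 0.31). Phlda3 was at 25.9 and 28.1 FPKM against 32.1 to 51.5 FPKM (-0.53, SE 0.25). Perp was at 9.47 and 5.99 FPKM against 9.76 to 31.4 FPKM (-1.04, SE 0.46). For Mdm2 and Perp the nearest libraries of the 2 groups all but touched, and none of the targets passed the test (adjusted p from 0.803 for Mdm2 upwards, limma). Without 2i-14 p18 the Perp difference was -0.60 and the Phlda3 difference -0.34, and without 2i-O48 the Mdm2 difference was -0.47. Bax was at 396 and 477 FPKM against 504 to 575 FPKM (-0.31, SE 0.16, and -0.18 without 2i-O48). Cdkn1a was the one gene whose fitted difference was above 0 (0.12, SE 0.25), with 131 (2i-O48) and 227 FPKM (2i-O48-TKO) around the wild-type range of 147 to 168 FPKM. Without 2i-O48-TKO that difference was -0.27 and without 2i-O48 it was 0.52.

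After the switch the genotypes differed in Trp53 by a log2 of -3.15, from 118 FPKM in 2i-14 to 13.9 and 11.1 FPKM. For Mdm2, Perp and Phlda3 the switched DMR-deleted libraries lay on either side of switched 2i-14. Perp was at 9.04 and 18.9 FPKM against 13.2 FPKM, Phlda3 at 9.34 and 16.5 FPKM against 12.5 FPKM, and Mdm2 at 18.8 and 23.8 FPKM against 21.8 FPKM. Cdkn1a was higher in the switched DMR-deleted cells, 150 and 179 FPKM against 89.3 FPKM in switched 2i-14. With 1 switched wild-type library, these differences have no test, and they were computed after the 2i/L results were seen.

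Trp53 and Phlda3 were lower after the switch from 2i/L to SF/a2i/L. Trp53 went from 180 to 118 FPKM in 2i-14, to 0.654 of its level. It went from 30.2 to 13.9 in 2i-O48 and from 33.2 to 11.1 in 2i-O48-TKO, to 0.460 and 0.333 of its level. The 3 lines moved one way, with 2i-14 starting from a much higher level than 2i-O48 and 2i-O48-TKO. Both of the latter come from O48 cells, so the 3 pairs are not 3 independent lines. Phlda3 went from 32.1 to 12.5 FPKM in 2i-14, from 25.9 to 16.5 in 2i-O48 and from 28.1 to 9.34 in 2i-O48-TKO. Every switched culture thus lay below every 2i/L culture for Phlda3. The fitted log2 changes were -1.06 (SE 0.23, n = 3 pairs, adjusted p = 0.0479) for Trp53 and -1.14 (SE 0.24, adjusted p = 0.0445) for Phlda3 (limma, lines as blocks). The comparison called 6.89% of 9759 genes, and 2 of 9 p53 genes, both lower, as were 4.66% of all genes tested, with 2.22% higher. Bbc3 fell under the expression filter and was not tested.

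Both calls sat close to the threshold. Under 14 alternatives Trp53 was called in 7 (adjusted p 0.00944 to 0.513) and Phlda3 in 10 (0.00487 to 0.301), and both lost their calls without the 2i-O48-TKO pair (-0.84, 0.344 and -0.96, 0.301), with no filter (0.170 and 0.167) and with median centring (-0.89, 0.0554 and -0.97, 0.0656). Median centring moved the median change of all genes by 0.17 in this comparison, by -0.12 in each of the comparisons of media and of passages, and by less than 0.1 in that of genotypes. Without the cell line block Phlda3 was called (0.0270) and Trp53 was not (0.513), all by limma.

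The rest of the pathway divided by gene and by line. Bax was lower after the switch in each line, with ratios from 0.684 to 0.864 and a log2 change of -0.34 (SE 0.15, adjusted p = 0.219). With p50 as the 2i-14 control, Perp was higher in each (0.62, SE 0.21, adjusted p = 0.137, limma). It was at 13.2 FPKM against 9.76 in 2i-14, 18.9 against 9.47 in 2i-O48 and 9.04 against 5.99 in 2i-O48-TKO. The labels do not say which 2i-14 passage was switched. Against 2i-14 p39 (14.6 FPKM) and p18 (31.4 FPKM) the Perp ratio in 2i-14 was 0.906 and 0.421, in place of 1.35. With p50 as that control, 1 of the 9 genes tested was higher and 3 were lower in all 3 pairs, against 19.4% and 29.4% of all genes. Mdm2 had ratios of 0.442 in 2i-14 and 0.541 in 2i-O48-TKO but 1.05 in 2i-O48 (-0.64, SE 0.27, adjusted p = 0.198, limma). Without 2i-O48 its change was -0.997 and was called (adjusted p = 0.0157, limma), and without 2i-14 it was -0.40.

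2i-O48 stood apart among the lines. Its Ccng1 level went from 30.8 to 70.8 FPKM and its Trp53inp1 level from 6.74 to 13.6 FPKM, ratios of 2.30 and 2.02. In 2i-14 and 2i-O48-TKO the ratios were 0.650 and 0.833 for Ccng1 and 0.956 and 1.07 for Trp53inp1. Before the switch 2i-O48 had been the lowest of all 13 libraries for both genes. Neither gene passed the test over the 3 pairs (0.10 and 0.32, adjusted p = 0.885 and 0.476, limma), and without this line the changes were -0.43 and 0.016.

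**Figure D3:**
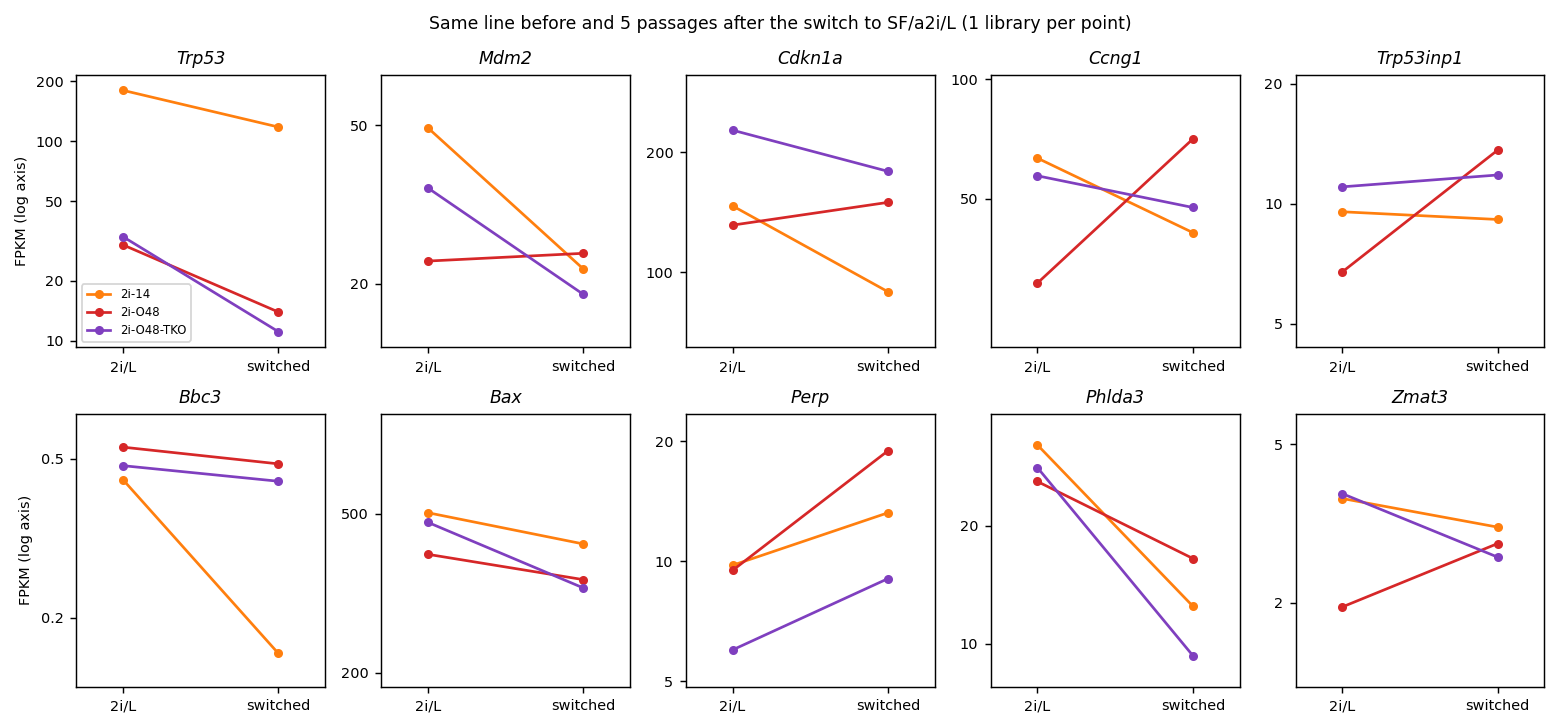
FPKM (log axis) of the 10 genes in 2i-14 (p50) and the DMR-deleted lines, in 2i/L and after 5 passages in SF/a2i/L, with 1 library per point and a line joining each cell line. Trp53, Phlda3 and Bax go down in all 3 lines and Perp goes up, whereas Ccng1 and Trp53inp1 rise steeply only in 2i-O48 (ratios of 2.30 and 2.02).

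Long-term culture in TSa2i/L was set against 2i/L in wild-type cells, and none of the 10 genes passed the test, where 7.57% of 10387 genes did. At an unadjusted p under 0.05 (limma) there were 2400 of the 10387 genes and 2 of the 10. These were Trp53 (0.0272) and Phlda3 (0.0370), in opposite directions. Trp53 was at 232, 122 and 170 FPKM in TSa2i-14 (p22, p47, p54) and at 109 and 144 FPKM in TSa2i-C57 (p9, p58). Against 180 to 346 FPKM in 2i/L, only TSa2i-14 p22 lay within the 2i/L range (log2 difference -0.66, SE 0.26, adjusted p = 0.153). Phlda3 was at 47.8 to 69.4 FPKM in TSa2i/L and 32.1 to 51.5 FPKM in 2i/L (0.48, SE 0.20, adjusted p = 0.183). Perp had the widest spread, 16.6 to 66.2 FPKM with a median of 37.0 against 9.76, 14.6 and 31.4 FPKM (0.94, SE 0.43, adjusted p = 0.223, limma). Single 2i/L libraries weighed on these values, with Trp53 at -0.39 without 2i-14 p18 (adjusted p = 0.442, limma) and Perp at 0.58 without 2i-14 p50 (0.545). The groups overlapped for each of the 10 genes, whereas 11.8% of all genes were higher and 4.72% lower in TSa2i/L with no overlap.

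The remaining targets differed by less. Mdm2 was at 47.8 to 67.1 FPKM in TSa2i/L and 36.0 to 64.7 FPKM in 2i/L (0.24, SE 0.20), and Ccng1 at 59.3 to 112 and 47.4 to 83.9 FPKM (0.33, SE 0.23). Without 2i-14 p39 they were 0.030 and 0.13, and without 2i-14 p18 they were 0.45 and 0.53. Trp53inp1 was at 12.7 to 25.5 and 9.55 to 15.4 FPKM (0.46, SE 0.25). Cdkn1a, at 117 to 155 and 147 to 168 FPKM (-0.19, SE 0.14), and Bax, at 444 to 515 and 504 to 575 FPKM (-0.18, SE 0.11), leaned the other way. The median of the 10 differences was 0.23, against 0.07 over all genes tested. Without the 3 libraries rich in fibroblast RNA, 0 of 10 were called, with Trp53 at -0.77, Perp at 1.10 and Phlda3 at 0.42. Cells in 2i/L were of one line and cells in TSa2i/L of 2 other lines, so medium and line cannot be told apart. This comparison and the switch share the 2i-14 p50 library, so they are not independent. Phlda3 was at 47.8 FPKM or more in TSa2i/L and at 16.5 FPKM or less in the switched cultures, and the difference between the 2 changes was not tested.

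**Figure D4:**
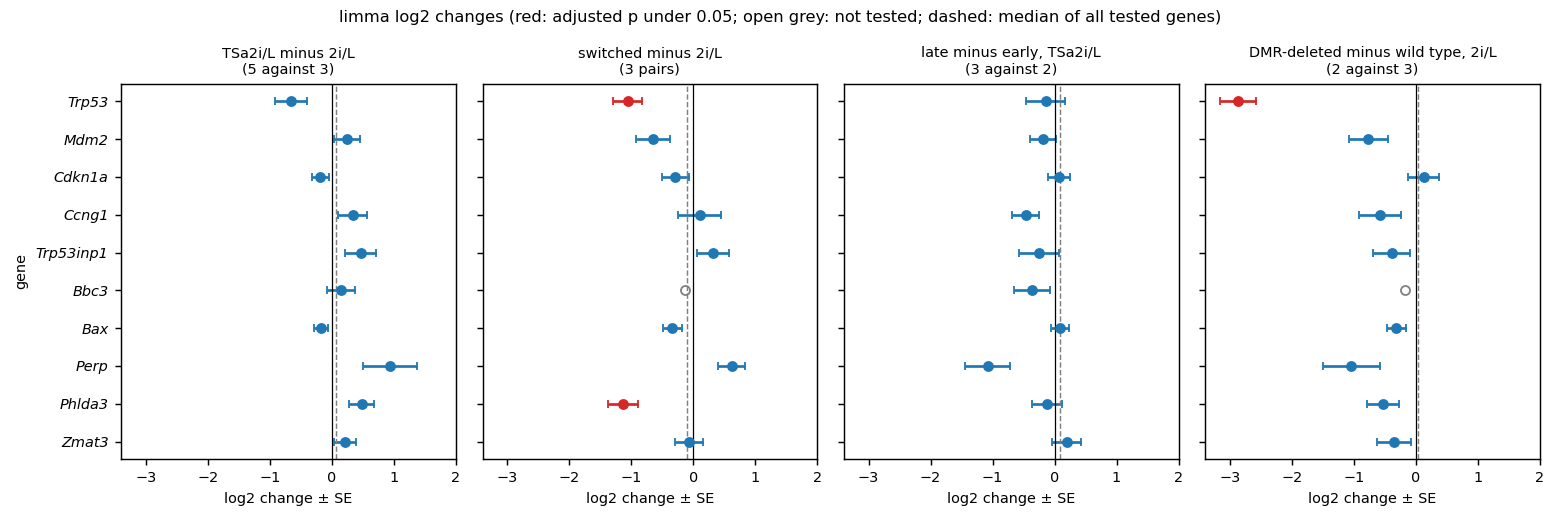
Log2 change ± SE (limma, log2(FPKM + 1) scale) of the 10 genes in the 4 comparisons, with the number of libraries or pairs in each title, red points past an adjusted p of 0.05 and a dashed line at the median of all genes tested. Red points stand only for Trp53 (-2.87 with DMR deletion, -1.06 after the switch) and Phlda3 (-1.14 after the switch).

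Late passages in TSa2i/L (TSa2i-14 p47 and p54, TSa2i-C57 p58) were compared with early ones (p22 and p9). None of the 10 genes was called, and limma called 0% of 10502 genes, with 928 at an unadjusted p under 0.05. Perp was the one p53 gene among those (limma, adjusted p = 0.530), at 22.2, 16.6 and 37.0 FPKM late against 40.4 and 66.2 FPKM early (log2 change -1.08, SE 0.36). Within each line the late libraries were below the early one. Fibroblast RNA moved with passage, since 2 of the 3 late libraries (TSa2i-14 p54 and TSa2i-C57 p58) and neither early one are among the 3 rich in it, and its part in these changes was not tested. The late library TSa2i-14 p47 had fibroblast markers at 24.3 FPKM in all, and as 1 library it cannot decide their part. Ccng1, like Perp, did not overlap, at 80.9, 71.4 and 59.3 FPKM late against 83.8 and 112 FPKM early (-0.46, SE 0.22, and -0.26 without TSa2i-C57 p9). These were 2 of 10 genes lower without overlap, against 9.72% of all genes. Trp53 went from 232 to 122 and 170 FPKM in TSa2i-14 but from 109 to 144 FPKM in TSa2i-C57. Its fitted change was -0.14 (SE 0.32) and was 0.40 without TSa2i-14 p22. In 2i-14 in 2i/L, Trp53, Phlda3, Perp, Bax and Trp53inp1 were each lower at p39 than at p18 and lower again at p50. Mdm2, Cdkn1a, Ccng1, Bbc3 and Zmat3 were not. There was 1 library per passage and no test, and p39 was rich in fibroblast RNA. The share of all genes with such a steady fall is not given here.

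Over the 13 libraries Trp53 and the targets other than Cdkn1a leaned the same way, some pairs only weakly. Among 36 pairs of genes without Cdkn1a, Spearman's rho of log2(FPKM + 1) was 0.137 to 0.962, with a median of 0.613. The 9 pairs with Cdkn1a had a rho of -0.313 to 0.264 and a median of -0.0879. The libraries share lines and media, so these are descriptions over 13 points. No values for pairs of other genes are given here for comparison, so the rho values are not shown to be particular to p53 genes. The genes whose pattern was most like that of Trp53, among 6312, were Mcf2 (rho 0.929), Cenpt (0.907) and Tdp1 (0.879). For Mdm2 they were Phlda3 (0.962), Sp2 (0.951) and Traf3ip2 (0.940), so its closest match was another p53 target. Cdkn1a had looser matches, Pfkp (0.764), Nid2 (0.747) and Rab33a (0.720).

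**Figure D5:**
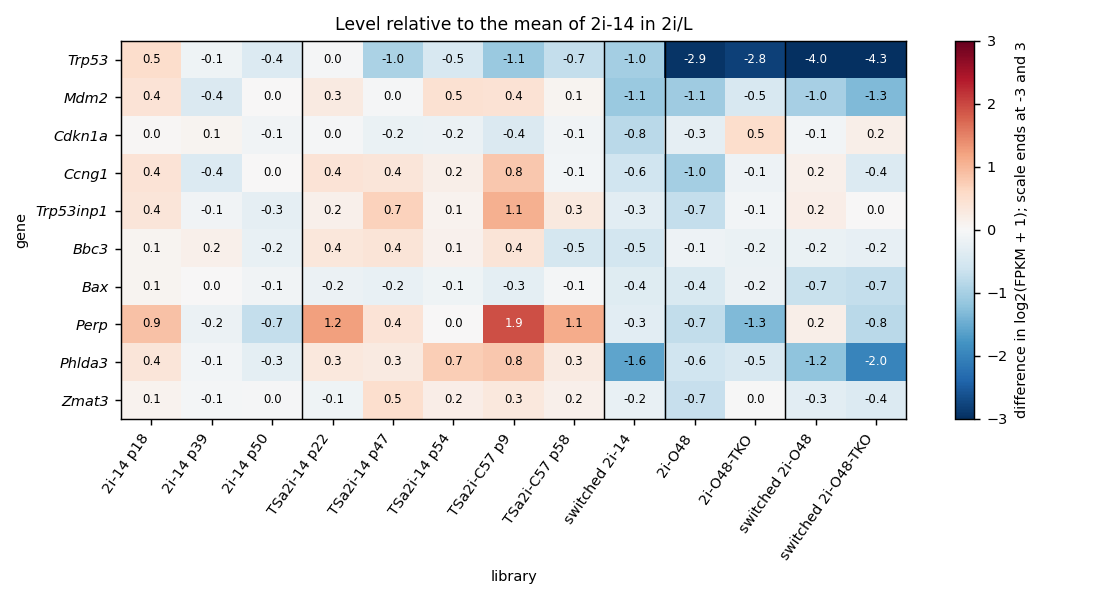
Difference in log2(FPKM + 1) of each gene (rows) in each library (columns) from its mean in 2i-14 in 2i/L (3 libraries), with blue lower, red higher and the value in each cell. The darkest blue is Trp53 in the 4 DMR-deleted libraries, Perp is the reddest in TSa2i-C57 p9, and Phlda3 is blue in all switched libraries.

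Other p53 targets, 35 genes on a list, gave called genes where the 10 did not. In TSa2i/L against 2i/L, 4 of 34 tested were called higher and 0 lower, against 5.72% and 1.85% of all genes. Of the 34, 29 leaned higher, with a median of 0.40 against 0.07 over all genes tested. The share of all genes that leaned higher is not given here. Gadd45a, a growth arrest and DNA repair gene, was at 34.6 to 47.5 FPKM in TSa2i/L and 12.5 to 15.5 FPKM in 2i/L (log2 difference 1.40, SE 0.17, adjusted p = 0.000880). Gdf15, a secreted stress factor, was at 20.2 to 41.2 and 7.76 to 12.96 FPKM (1.44, SE 0.26, adjusted p = 0.00809). Ddb2, which recognises ultraviolet damage in DNA, was at 11.8 to 19.4 and 4.12 to 6.98 FPKM (1.27, SE 0.22, adjusted p = 0.00734). The fourth, Ddit4, an inhibitor of mTOR signalling named after its values were seen, was at 2.10 to 2.94 and 0.268 to 1.10 FPKM (1.15, SE 0.20, adjusted p = 0.00657, limma). In 2i-14 p39 and p50 Ddit4 was at 0.413 and 0.268 FPKM, where 3 fragments on 1 kb are worth 0.194 and 0.157 FPKM. Its 2i/L level therefore rests on few fragments. For all 4 called genes the groups did not overlap, which adds no support since the calls used the same libraries. Of all genes tested, 11.8% were higher in TSa2i/L without overlap. Without the 3 libraries rich in fibroblast RNA, limma still called Gadd45a and Ddb2 (adjusted p = 0.0264 and 0.0371) but not Gdf15 (1.29, 0.113) or Ddit4 (1.13, 0.0838).

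After the switch Gadd45a rose in all 3 lines, to 30.4 to 58.9 FPKM from 8.10 to 15.5 FPKM (1.93, SE 0.23, adjusted p = 0.0118, limma), while 21 of 30 targets tested leaned lower (median -0.23 against -0.09 over all genes). Gadd45a was the 1 gene of that list called, where 6.89% of all genes tested were called and 2.22% were called higher. In the DMR-deleted lines 0 of 33 were called and 4 had an unadjusted p under 0.05, against 589 of 10164 genes (limma). There 24 were below 0, with a median of -0.25 against 0.03. By passage 0 of 34 were called and 3 had an unadjusted p under 0.05, against 928 of 10502 genes (limma). The median by passage was 0.06 against 0.09 over all genes. The shares of all genes that leaned one way are not given here.

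Regulators of p53 and the BCL2 family each gave 1 call or none per comparison. Over all genes tested, 7.57% were called between media (1.85% lower) and 6.89% after the switch (4.66% lower). An unadjusted p under 0.05 (limma) was reached by 2400 of 10387 genes between media, 928 of 10502 by passage and 589 of 10164 by genotype. Of 26 regulators such as Mdm4, Atm and Chek2, 0 of 21 tested were called between media, passages or genotypes, with 3, 2 and 0 at an unadjusted p under 0.05 (limma). After the switch 1 of 20 was, Wrap53, which fell from 27.6 to 59.6 FPKM in 2i/L to 13.7 to 18.6 FPKM (-1.11, SE 0.25, adjusted p = 0.0499, limma). It was called in 8 of 14 alternatives and not without 2i-O48-TKO (adjusted p = 0.221). Of the BCL2 family, which sets the threshold of apoptosis together with Bax, 1 of 8 tested was called between media and 1 of 8 after the switch. Both times this was Bok, a relative of Bax, at 3.56 to 8.40 FPKM in TSa2i/L and 8.64 to 17.6 FPKM in 2i/L (-1.09, SE 0.29, adjusted p = 0.0452, limma). After the switch it fell to 3.72 to 6.99 FPKM from 8.64 to 21.6 FPKM (-1.35, SE 0.22, adjusted p = 0.0225, limma). The call between media held in 9 of 18 alternatives. It was lost without any one of the libraries 2i-14 p18, 2i-14 p39, TSa2i-14 p47, TSa2i-14 p54, TSa2i-C57 p58 and TSa2i-C57 p9 (adjusted p from 0.0553 to 0.154), and that after the switch without 2i-O48-TKO (0.133). By passage and genotype 0 of 8 were called, with 1 each at an unadjusted p under 0.05 (limma).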

How the data were processed

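RNA-seq libraries were analysed in 13 samples; methylation and chromatin samples were not analysed here. Full-length cDNA was amplified from haploid cells. Per the methods, the authors used TopHat and the mm9 genome for mapping and Cufflinks for the deposited FPKM values, so no count test was run. The submitters' processing notes name TopHat2 2.0.11, Cufflinks 2.2.1 and Bowtie2 2.2.2; the gene annotation and any scaling between libraries are not given in the sources used here. Amplification noise and differences between cultures cannot be told apart in such libraries.

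Rows of a repeated symbol were summed. Log2(FPKM + 1) was fitted with limma 3.58.1 (R 4.3.3) across all genes that reached 1 FPKM in at least 3 libraries (media, switch) or 2 (passages, genotypes). The empirical Bayes step had an intensity trend, and p-values were adjusted by Benjamini-Hochberg over all genes tested, with a threshold of 0.05. The pseudocount of 1 understates changes of low genes. The pairs of the switch come from the line in each sample's label. The labels do not say which passage of 2i-14 was switched, and p50 stood for 2i-14. Deviations of the paired samples correlated at 0.172, 0.358 and -0.141 in 2i-14, 2i-O48-TKO and 2i-O48. Passages were split at 30. In data simulated from these libraries, changes of a log2 of 1 and 2 were recovered for 54% and 97% of genes between media (10387 genes), 8% and 60% in the switch (9759), 20% and 75% by passage (10502) and 15% and 66% by genotype (10164).

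All 10 p53 genes were named. From each further list up to 3 called genes with the largest rise and 3 with the largest fall per comparison were named. The genes and lists were chosen with earlier results of these data known. Gene positions came from GENCODE vM1 (NCBIM37) and promoter sequences from RefSeq (GRCm38.p6). Alternatives covered the pseudocount (0.1), the filter, scaling, the trend, repeated symbols, the block, the control passages, and each library or line left out in turn. Fragments were inferred from the smallest FPKM values and cover counting error only. Python 3.11.15, numpy 2.4.6, pandas 2.3.3, scipy 1.17.1 and matplotlib 3.10.9 were used.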

Additional observations from a re-analysis of the deposited data

Results flagged for a closer look

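The change of Trp53inp1 after the switch stood out because the lines moved in opposite directions by genotype. The log2 change was -0.0581 in wild-type 2i-14 and 0.919 and 0.0908 in the DMR-deleted 2i-O48 and 2i-O48-TKO. The difference between genotypes was not tested, the wild-type side is 1 pair, and the 2i-14 and 2i-O48-TKO changes are both small. No value of the 10 genes stood apart among the 5 TSa2i/L libraries by Dixon's test, where chance would flag about 1 group in 20.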

How the results depend on the processing

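The number of the 10 p53 genes called moved by setting. Between media it was 0 and became 1 (Phlda3) with both DMR-deleted lines added to the 2i/L group. After the switch it was 2. It became 0 with no filter and with median centring, and 1 with a pseudocount of 0.1, a mean FPKM of at least 5, quantile normalization or no intensity trend. Without the replicate block by cell line it was 1, and leaving out 1 line gave 0 to 3, the third being Mdm2 without 2i-O48. In the comparison of genotypes it was 1 and became 0 with no filter, and leaving out 1 library gave 0 to 1. By passage it stayed at 0, also with the cell line as a block.

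Values that changed sign had not been called in the first place. Between media, Trp53 became 0.49 with the DMR-deleted lines added. After the switch, Ccng1 became -0.031 with 2i-14 p18 as control, and Zmat3 became 0.094 with median centring and 0.063 with quantile normalization. Leaving out 1 line gave -0.43 (without 2i-O48) to 0.46 for Ccng1 and -0.29 to 0.093 (without 2i-O48-TKO) for Zmat3. By passage, Cdkn1a became -0.052 and Bax -0.033 with median centring, and Zmat3 became -0.0044 with quantile normalization. Leaving out 1 library gave -0.68 to 0.40 (without TSa2i-14 p22) for Trp53, and -0.019 (without the same library) to 0.41 for Zmat3. It gave -0.13 to 0.27 for Cdkn1a, -0.71 to 0.21 for Trp53inp1 and -0.37 to 0.12 for Phlda3, which changed sign without TSa2i-C57 p9. By genotype it gave -0.27 (without 2i-O48-TKO) to 0.52 for Cdkn1a. The causes were not tested.

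Over all genes, limma called 786 between media (594 higher, 192 lower) and 229 to 1316 under the alternatives, with 359 higher and 280 lower after median centring. After the switch it called 672 (217 higher, 455 lower) and 0 to 1522 under the alternatives, with 386 higher and 314 lower after centring. By genotype it called 12 and 0 to 20, and by passage 0 and 0 to 8. The 2 DMR-deleted libraries and 3 pairs limit what can be called.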
